A study of Mus musculus with 24 samples.

Results

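The regions described here are the short stretches of DNA between neighbouring protein-coding genes of the mouse. Among 20665 autosomal coding genes of the RefSeq annotation of GRCm38.p6 (the mm10 build), 1958 pairs of neighbours did not overlap and had facing ends 1 to 1000 b apart, and 3542 genes took part in such a pair. A region was the gap plus 500 b on either side. By strand, 548 pairs were divergent, so that both genes start at the gap, 435 were tandem, with 1 start and 1 gene end, and 414 were convergent, with 2 gene ends. For the other 561 pairs the strand of a gene was not known and they were kept apart. They were set against 13198 isolated gene starts, which have no other coding gene within 1000 b, and against 37414 other coding gene ends.

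The cells were group 3 innate lymphoid cells (ILC3s), tissue-resident lymphocytes of the gut, sorted from small intestine into 3 subsets named CCR6+, NKp46+ and DN. KO cells carried 2 floxed Cxxc1 alleles and a Cre recombinase, and WT cells carried the floxed alleles without that Cre (Cxxc1flox/flox). Libraries were made by CUT&Tag, in which an antibody guides a transposase to its target, from 100000 cells each, with an antibody to CFP1, the product of Cxxc1, or to histone H3 trimethylated on lysine 4 (H3K4me3). Both genotypes, 3 subsets and 2 antibodies gave 12 groups of 2 libraries, 24 in all. Mice are labelled as 6 to 8 weeks old, but the protocol text speaks of both aged and young animals and of culture conditions, so age and handling are uncertain.

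CFP1 binds DNA that contains unmethylated CpG and is a subunit of the SET1 complexes, which place H3K4me3 at active gene starts. In a divergent pair both genes start from nearly the same DNA, and such promoters are often CpG islands that serve housekeeping genes such as those of DNA repair and mitochondria. A tandem gap holds the end of the upstream gene and the start of the next, and a convergent gap holds no annotated start, so the orientations give a contrast within one set of regions.

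The deposited lists give peaks without read counts, so the depth of each library is unknown, and a region without a peak is one where no peak is listed. On the autosomes the CFP1 lists held 707 to 8699 peaks in KO and 4492 to 7815 in WT libraries. The longest CFP1 list belonged to the library labelled KO DN replicate 2, which held more peaks than any WT library. The library labelled KO NKp46+ replicate 2 held 4801 peaks against 707 to 1299 in the other 4 KO libraries. The cause of these long lists was not tested. The main CFP1 results in KO are therefore also given without these 2 libraries, which leaves 4 KO libraries. H3K4me3 lists held 11458 to 17602 peaks in KO and 12463 to 14937 in WT libraries. Of the ILC3 marker genes reported here, Id2, Thy1, Kit and Ahr held H3K4me3 at a gene end in all 12 libraries, Il7r in 4 KO and 6 WT, Il23r in 1 KO and 6 WT, Ncr1 in 2 KO and 4 WT and Ccr6 in 0 KO and 4 WT libraries, and Il22 in none. Of 4 T cell markers, Cd4 was marked in all 12 libraries and Cd3e and Cd3d in 5 KO and 6 WT libraries each, and Cd8a in 2 KO and 4 WT. B cell and myeloid markers were marked in at most 1 library, and of the epithelial markers Epcam was marked in all 12, Cdh1 in 5 KO and 5 WT and Vil1 in none. The part of other cells in the results was not tested.

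The promoters below belong to divergent pairs on which the results turn, and are shown because CFP1 is known for binding CpG, which is in capitals. Each is the RefSeq promoter of the table of GRCm38.p6, 250 b before the annotated start to 50 b after it, on the strand of the named gene. Fkbp3 (chr12:65073889-65074188, minus strand), Ccdc59 (chr10:105841229-105841528, plus strand) and Ndufa4 (chr6:11907401-11907700, minus strand) come from pairs with a large excess of WT over KO libraries in CFP1, of 6 libraries at the pair of Fkbp3, the only divergent pair at that excess, and of 5 at the pairs of Ccdc59 and Ndufa4, among 21 divergent pairs tied at 5. Larp7 (chr3:127553300-127553599, minus strand) and Mpc2 (chr1:165461010-165461309, plus strand) come from the 2 pairs with the strongest CFP1 peaks in WT. Bhmt2 (chr13:93674253-93674552, minus strand) and Cd160 (chr3:96829302-96829601, minus strand) come from pairs with no peak of either antibody. The windows of Fkbp3, Ccdc59, Larp7, Bhmt2 and Cd160 span the whole gap of their pair.
Fkbp3: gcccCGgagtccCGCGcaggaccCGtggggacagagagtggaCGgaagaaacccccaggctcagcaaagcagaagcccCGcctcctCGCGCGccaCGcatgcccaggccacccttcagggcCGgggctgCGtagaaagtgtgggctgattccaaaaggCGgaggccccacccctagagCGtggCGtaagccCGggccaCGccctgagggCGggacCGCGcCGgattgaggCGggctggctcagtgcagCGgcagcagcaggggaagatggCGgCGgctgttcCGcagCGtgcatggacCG
Ccdc59: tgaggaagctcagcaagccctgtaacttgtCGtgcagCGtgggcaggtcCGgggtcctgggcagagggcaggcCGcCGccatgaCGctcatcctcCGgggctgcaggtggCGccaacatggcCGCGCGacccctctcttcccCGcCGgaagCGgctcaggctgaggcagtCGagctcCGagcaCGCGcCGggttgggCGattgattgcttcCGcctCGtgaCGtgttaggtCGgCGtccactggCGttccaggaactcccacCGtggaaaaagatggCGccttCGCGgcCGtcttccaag
Ndufa4: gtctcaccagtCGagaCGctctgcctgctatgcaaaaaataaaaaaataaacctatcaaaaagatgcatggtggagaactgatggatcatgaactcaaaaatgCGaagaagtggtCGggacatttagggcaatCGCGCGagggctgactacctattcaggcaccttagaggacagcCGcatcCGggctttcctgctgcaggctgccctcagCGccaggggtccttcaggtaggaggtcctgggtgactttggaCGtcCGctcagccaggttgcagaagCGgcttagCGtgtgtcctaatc
Larp7: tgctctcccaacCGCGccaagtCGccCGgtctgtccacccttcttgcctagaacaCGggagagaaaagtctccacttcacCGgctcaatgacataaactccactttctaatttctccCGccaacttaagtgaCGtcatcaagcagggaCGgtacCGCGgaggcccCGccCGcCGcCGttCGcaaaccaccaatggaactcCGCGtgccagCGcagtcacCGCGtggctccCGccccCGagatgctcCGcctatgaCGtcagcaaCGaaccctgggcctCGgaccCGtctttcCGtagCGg
Mpc2: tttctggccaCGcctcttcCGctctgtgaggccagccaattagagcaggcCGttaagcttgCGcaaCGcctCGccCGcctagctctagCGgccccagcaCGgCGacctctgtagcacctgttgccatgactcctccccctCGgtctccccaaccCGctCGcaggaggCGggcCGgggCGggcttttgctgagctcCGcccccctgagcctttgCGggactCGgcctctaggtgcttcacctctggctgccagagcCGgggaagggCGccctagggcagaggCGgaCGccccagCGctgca
Bhmt2: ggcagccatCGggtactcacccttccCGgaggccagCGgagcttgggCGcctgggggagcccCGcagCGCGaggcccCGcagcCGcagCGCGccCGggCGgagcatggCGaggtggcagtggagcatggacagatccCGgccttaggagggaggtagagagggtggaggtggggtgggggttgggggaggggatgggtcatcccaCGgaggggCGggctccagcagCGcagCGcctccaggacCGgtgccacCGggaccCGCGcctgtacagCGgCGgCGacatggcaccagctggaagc
Cd160: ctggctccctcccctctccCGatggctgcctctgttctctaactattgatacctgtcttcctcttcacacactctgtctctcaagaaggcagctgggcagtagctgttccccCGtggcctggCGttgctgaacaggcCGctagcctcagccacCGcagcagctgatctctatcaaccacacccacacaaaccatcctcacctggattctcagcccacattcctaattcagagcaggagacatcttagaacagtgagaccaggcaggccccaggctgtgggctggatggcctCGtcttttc
These windows hold 28 CpG for Fkbp3, 31 for Ccdc59, 14 for Ndufa4, 30 for Larp7 and 24 for Mpc2. The promoter of Phf14, the partner of Ndufa4, is not shown and holds 33. The Bhmt2 window holds 26 and the Cd160 window 6, so a CpG-dense window occurs both among pairs with strong peaks and among pairs with none listed.

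Divergent gaps were short, with a median of 101.5 b, against 449 b for tandem and 381.5 b for convergent gaps. Nearly all of them carried H3K4me3. A peak lay in 90.33 to 92.52% of the 548 divergent regions in KO libraries and in 90.33 to 91.61% in WT libraries, with means of 91.52 ± 0.879% in KO and 91.15 ± 0.443% in WT (SD, n = 6 each). Of the 548 pairs, 492 held H3K4me3 in all 12 libraries and 41 in none, and 13 of the rest held it in 2 to 10. Over all orientations, 944 of the 1073 pairs with H3K4me3 in any library held it in all 12, against 74.2% of all such regions. In WT libraries the mark reached 91.15% of divergent regions, against 53.94% of tandem regions (51.49 to 54.94%), 4.31 ± 1.1% of convergent regions and 41.64 ± 1.57% of isolated starts (SD, n = 6). The divergent share was higher than the isolated share by 49.5 ± 0.482 points (SE) and higher than the tandem share by 37.2 ± 0.365 points, in 6 of 6 WT libraries each (exact sign-flip test over 6 libraries, two-sided, p = 0.0312 for both, the smallest it can give). The 64 sign arrangements treat these libraries as independent, and the labels do not say which share an animal.

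CFP1 followed the same order at a lower level. A CFP1 peak lay in 55.96 ± 6.04% of divergent regions in WT libraries, against 18.39 ± 2.54% of tandem regions, 0.886 ± 0.66% of convergent regions and 17.02 ± 1.8% of isolated starts (SD, n = 6). The excess of divergent over isolated starts was 38.9 ± 1.79 points and that over tandem regions 37.6 ± 1.83 points, in 6 of 6 libraries each (exact sign-flip test, p = 0.0312 for both). Divergent regions hold 2 starts. With both flanks they averaged 1172 b, longer than the window at an isolated start and shorter than tandem regions at 1460 b. With only 500 b on either side of the right-hand start, the excess over isolated starts was 38.7 points. Among regions with H3K4me3 in the library of the same genotype, subset and replicate number, CFP1 lay at 61.39% of divergent regions and 40.74% of isolated starts, an excess of 20.7 ± 1.08 points (6 of 6 libraries, exact sign-flip test, p = 0.0312). Over all 12 libraries CFP1 was at 784 of the 1958 pairs at least once, 431 of them divergent, against 16.2% of all regions of the table. Every divergent region with CFP1 also held H3K4me3 in that matched library, in all 12 CFP1 libraries.

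**Figure D1:**
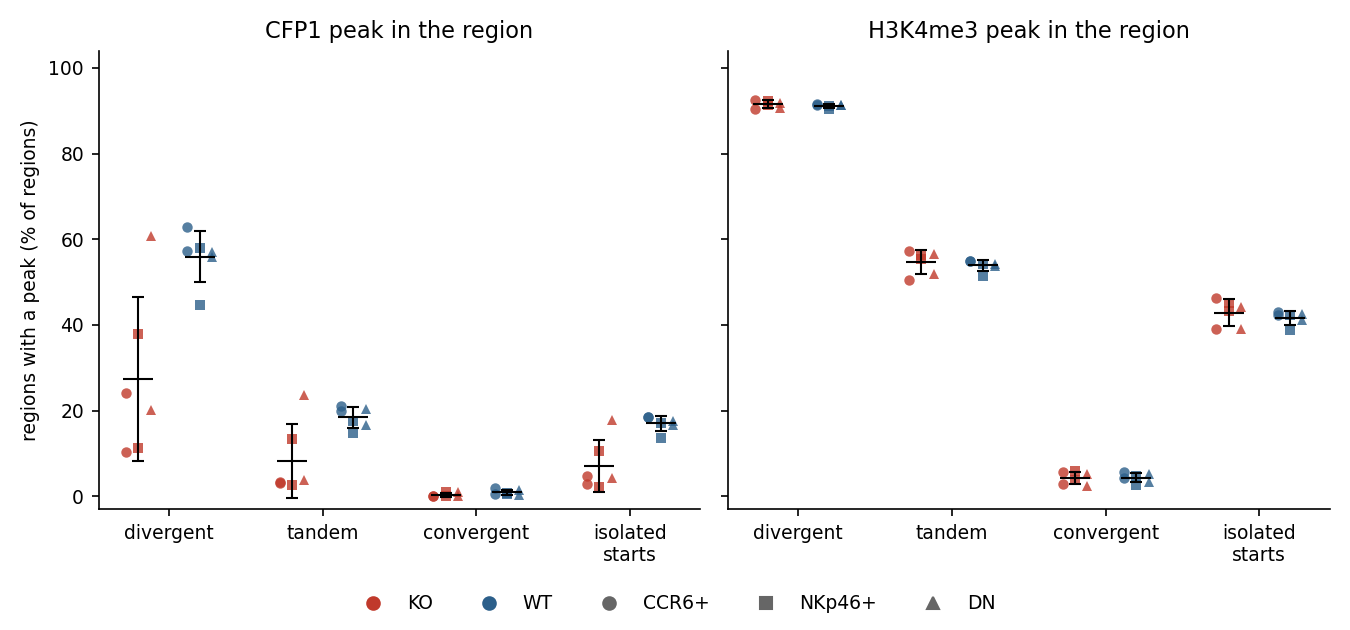
Share of regions with a peak (percent) by orientation, for CFP1 on the left and H3K4me3 on the right; each point is 1 library, shapes give the subset, and bars give the mean and SD of 6 libraries. Divergent regions stand highest for both antibodies, at 55.96% CFP1 in WT and above 90% H3K4me3 in both genotypes, while convergent regions stay below 6%.

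In tandem regions, where 1 facing end is a start and the other a gene end, peaks covered the start more often than the gene end. Of the tandem regions with H3K4me3, a peak covered the start of the downstream gene in 81.3 ± 4.22% in KO and 79.3 ± 2.97% in WT libraries, and the end of the upstream gene in 24.5 ± 6.0% in KO and 23.2 ± 3.23% in WT (SD, n = 6). For CFP1 the start was covered in 59.9 ± 7.59% in KO and 60.5 ± 4.14% in WT, and the gene end in 21.2 ± 5.2% in KO and 18.2 ± 7.42% in WT libraries. In the 4 KO libraries with short lists, CFP1 covered the start in 58.5 ± 8.71% and the gene end in 18.8 ± 4.67%, of only 11 to 16 tandem regions with CFP1 per library. CFP1 lay in all 6 WT libraries at 34 tandem pairs. Of these, the ones with the highest rank within the lists were Nt5c1b/Rdh14 and Abtb1/Podxl2, each in 2 KO and 6 WT libraries, and Spag7/Camta2, in 5 KO and 6 WT libraries. The convergent region with CFP1 in most WT libraries was Tnfrsf25/Espn, in 1 KO and 5 WT libraries. Tnfrsf25 encodes a receptor of the TNF receptor superfamily on lymphocytes, and its region held H3K4me3 in 6 KO and 3 WT libraries. Mink1/Chrne and Prr7/Dbn1, also convergent, held CFP1 in 2 KO and 4 WT libraries each.

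At most marked divergent pairs 1 listed H3K4me3 peak lay over both starts. The median gap was 101.5 b, below the usual width of a peak, so the lists cannot tell 1 block from 2 marked starts. A region with H3K4me3 held a single peak in 99.43 ± 0.518% of cases in KO and 99.6 ± 0.404% in WT libraries. That peak reached over both gene starts in 89.9 to 93.01% of marked regions in KO and 89.9 to 92.79% in WT libraries, with means of 91.88% in KO and 91.62% in WT. The difference of 0.258 ± 0.834 points (SE) was within the spread between libraries (exact permutation of genotype within subset, two-sided, 216 arrangements, p = 0.731, higher in KO in 4 of the 6 pairs with the same subset and replicate number). The strongest point of the peak lay inside the gap itself in 15.5 ± 5.94% of marked regions in KO and 14.8 ± 6.15% in WT, and its distance to the middle of the gap had medians of 138 to 223 b in KO and 131 to 231.2 b in WT libraries. H3K4me3 peaks were wider at divergent regions than at isolated starts. In WT libraries the median width was 1354 ± 212 b at divergent regions and 1152 ± 171 b at isolated starts, a difference of 0.232 ± 0.00633 on the log2 scale (SE, 6 of 6 libraries, exact sign-flip test, p = 0.0312). In KO libraries the median width at divergent regions was 1280 ± 216 b, and the difference of -0.0833 ± 0.0804 on the log2 scale (KO minus WT, SE, lower in KO in 5 of 6 pairs of libraries) was within the spread (exact permutation test, p = 0.565). Much of this spread went with the replicate number, which the permutation does not use. Over both genotypes, widths were 1025 to 1272 b in replicate 1 and 1423 to 1555 b in replicate 2. The strongest point lay in the gap in 17.8 to 24.04% in replicate 1 and 9.163 to 10.93% in replicate 2. With subset and replicate number as a block, the width difference gave p = 0.281 (exact sign-flip test).

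CFP1 peaks were narrower and covered both starts less often. Their median width at divergent regions was 569 ± 112 b in KO and 702.4 ± 54.5 b in WT libraries (SD, n = 6). They reached over both starts in 28.57 to 71.17% of the bound divergent regions in KO and in 62.86 to 78.1% in WT libraries, with means of 47.13 ± 15% in KO and 70.58 ± 5.33% in WT. The 2 longest KO lists gave the 2 highest KO values, 71.17% for the library labelled KO DN replicate 2 and 56.25% for KO NKp46+ replicate 2. Without them, the 4 other KO libraries had a median width of 507 ± 53.6 b and covered both starts in 38.8 ± 7.95% (SD). The genotypes were not tested on this measure, and its relation to list length was not tested.

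Between the shortest and the longest gaps, coverage of both starts differed more than the presence of a peak. A peak can cover both starts only if it is longer than the gap, so part of this fall is built into the measure. H3K4me3 lay at 93.8 ± 0.998% in KO and 93.4 ± 0.658% in WT of the 272 divergent regions with a gap of 1 to 100 b, and at 73.6 ± 3.59% in KO and 71.5 ± 2.95% in WT of the 41 with a gap of 501 to 1000 b. The H3K4me3 peak covered both starts in 95.4 ± 1.24% in KO and 95.2 ± 0.838% in WT of the marked regions at the shortest gaps, and in 54.0 ± 5.84% in KO and 53.4 ± 3.29% in WT at the longest. CFP1 in WT lay at 52.8 ± 7.94% of regions at gaps of 1 to 100 b, 60.9 ± 5.67% at 101 to 200 b, 61.8 ± 4.76% at 201 to 500 b and 46.3 ± 4.88% at 501 to 1000 b. Its peaks covered both starts in 79.9 ± 5.02% of bound regions at the shortest and 27.1 ± 8.12% at the longest gaps in WT.

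**Figure D2:**
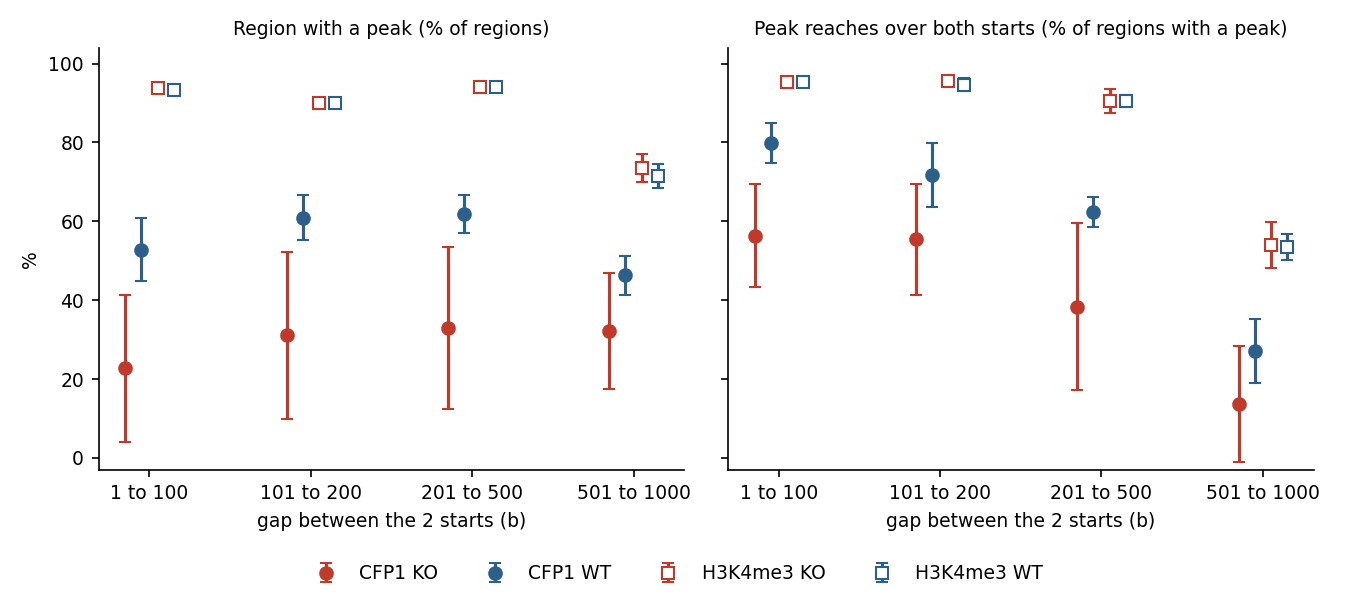
Divergent regions by length of the gap (b); the left panel gives the percent of regions with a peak and the right panel the percent of those regions where a peak reaches over both starts. Points are means and bars SDs of 6 libraries, filled circles CFP1 and open squares H3K4me3. H3K4me3 over both starts drops to 53.4% in WT at gaps of 501 to 1000 b.

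Some divergent pairs carried H3K4me3 at 1 start only. Leaving out predicted genes and chromosome 18, 13 of 469 marked divergent pairs held the mark over 1 start and not over the other in all 12 libraries, and 8 of the 13 had gaps over 500 b. These pairs were picked out after their values were seen. At Aptx/Dnaja1, with a gap of 800 b, all 12 libraries marked the start of Dnaja1, an HSP40 co-chaperone, and none that of Aptx, a DNA strand-break repair protein. The pair also held CFP1 in 5 KO and 6 WT libraries, and its promoters hold 20 CpG for Aptx and 27 for Dnaja1. At Ndufa5/Asb15 the 2 promoters hold 15 and 3 CpG, and at Myl12a/Myom1, a myosin light chain gene beside a muscle sarcomere gene, 27 and 2. At Hspa1a/Hspa1l, a heat-shock gene and its relative, the counts are 15 and 11. CpG counts were not compared over all 13 pairs.

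Over all pairs, divergent promoters held more CpG than isolated ones, a difference that was small among marked promoters. The mean of both promoters had a median of 23.5 CpG per 300 b over the 548 pairs, against 12 for isolated starts. Among those with H3K4me3 in all 12 libraries the medians were 24 for divergent pairs and 22 for isolated starts. Among those with CFP1 in all 6 WT libraries they were 24.5 for divergent pairs and 26 for isolated starts, so the order turned. These medians are a description, with no test. At 20 to under 30 CpG, CFP1 in WT lay at 63.1 ± 6.95% of 225 divergent regions and 33.2 ± 2.93% of 2591 isolated starts, a difference of 29.9 points (6 of 6 libraries, exact sign-flip test, p = 0.0312). Under 10 CpG the shares were 6.99 ± 3.77% of 31 divergent regions and 2.02 ± 0.58% of 6002 isolated starts. At 30 CpG or more they were 64.0 ± 9.05% of 130 divergent regions and 37.4 ± 4.13% of 1922 isolated starts. H3K4me3 in WT ranged between 46.2 ± 1.67% of divergent regions with under 10 CpG and 96.5 ± 0.644% of those with 30 or more. The 129 divergent pairs with CFP1 in no WT library had a median of 18 CpG, against 24.5 for the 184 with CFP1 in all 6. The 41 pairs without H3K4me3 had 14.5.

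**Figure D3:**
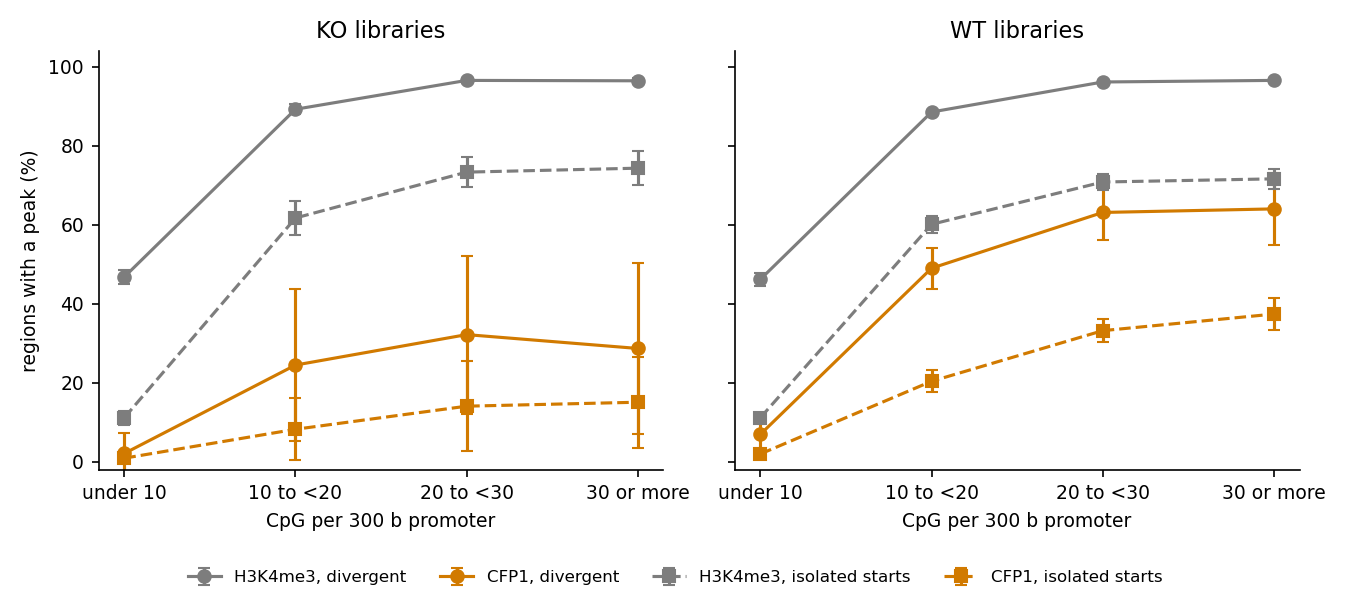
Percent of regions with a peak by the number of CpG per 300 b promoter (mean of both promoters for divergent pairs), KO libraries on the left and WT on the right; points are means and bars SDs of 6 libraries. In WT both antibodies stand higher at divergent pairs (solid lines) than at isolated starts (dashed lines) in every class, with CFP1 at 63.1% against 33.2% for 20 to under 30 CpG.

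Short letter motifs were counted on both strands of the same 300 b windows, and matches of different motifs may overlap. CCGGAAG, a core bound by ETS factors, occurred in 27.1% of the 1096 promoters of divergent pairs, against 10.1% of isolated starts and 11.9% of all 20085 coding promoters of the table. GGGCGG, the GC box, occurred in 66.2% of divergent and 45.2% of isolated promoters, against 47.0% of all, and CCAAT in 45.5% of divergent and 38.8% of isolated promoters, against 38.1% of all. TATAAA, the TATA box, was less frequent, at 5.66% of divergent and 14.9% of isolated promoters, against 12.7% of all. Both promoters of a pair often share DNA, so these counts are not independent and were not tested.

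In KO libraries fewer divergent regions held a CFP1 peak. The share was 24.1% and 10.2% in KO CCR6+ replicates 1 and 2, 11.3% and 38.0% in KO NKp46+ and 20.1% and 60.8% in KO DN libraries. In WT libraries it was 62.96% and 57.3% for CCR6+, then 57.85% and 44.7% for NKp46+, then 55.8% and 57.1% for DN. The 5 other KO libraries lay below every WT library, and the library labelled KO DN replicate 2 lay above 5 of the 6 WT libraries. The mean was 27.4 ± 19.2% in KO and 55.96 ± 6.04% in WT (SD, n = 6 each), a difference of -28.6 ± 8.83 points (KO minus WT, SE, lower in KO in 5 of the 6 pairs with the same subset and number, exact permutation of genotype within subset, two-sided, p = 0.0278). The SE is over those 6 pairs, while the permutation does not pair libraries. Libraries of replicate 1 alone gave -40.4 points and those of replicate 2 alone -16.7 points. With libraries of the same subset and replicate number taken as a block, the difference no longer passed the test (replicate block, exact sign-flip over 6 pairs, p = 0.0625). Leaving out the library labelled KO DN replicate 2 gave -35.3 points (exact permutation test, p = 0.00926). Leaving out KO NKp46+ replicate 2 as well gave -39.8 points (exact permutation test, p = 0.0185). Each is the smallest p the test can give with the libraries left. Those 2 libraries held the 2 highest KO shares, so a larger difference without them followed from the choice. The call was lost in 5 of the 12 settings that left out 1 library. By exact permutation, they were those without KO DN replicate 1 (-21.8 points, p = 0.0741), KO NKp46+ replicate 1 (-24.1, p = 0.0556), WT NKp46+ replicate 1 (-26.4, p = 0.0556), WT NKp46+ replicate 2 (-30.7, p = 0.0556) and WT DN replicate 2 (-28.3, p = 0.0556).

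This share moved with the length of the lists. When both lists of a subset and replicate number were cut to the length of the shorter one by fold enrichment, an alternative chosen after the data were seen, divergent shares averaged 27.0% in KO and 27.3% in WT. The difference was -0.25 points (exact permutation test, p = 0.963), with KO higher in 4 of 6 pairs. Fewer reads and fewer bound sites cannot be told apart from these lists.

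Relative to isolated starts, divergent regions took a larger share in KO than in WT. The log2 ratio of the divergent to the isolated share was 2.32 and 1.86 in KO CCR6+, 2.32 and 1.84 in KO NKp46+ and 2.23 and 1.78 in KO DN libraries. In WT libraries it was 1.76 and 1.63 for CCR6+, then 1.76 and 1.71 for NKp46+, then 1.74 and 1.71 for DN. All KO values lay above all WT values, with a mean of 2.06 in KO and 1.72 in WT, higher in KO by 0.342 ± 0.0905 (SE, 6 of 6 pairs, exact permutation test, p = 0.00926, the smallest it can give). With lists of equal length the means were 2.07 in KO and 1.87 in WT, and the difference of 0.203 no longer passed the test (exact permutation, p = 0.157, higher in KO in 5 of 6 pairs). Within replicate 1 it was 0.538 and within replicate 2 it was 0.147. The call was also lost when WT CCR6+ replicate 2, either WT NKp46+ library or either WT DN library was left out (0.321 to 0.351, exact permutation tests, p = 0.0556 to 0.0833). Without KO NKp46+ and KO DN of replicate 2 the difference was 0.498 (p = 0.0185, exact permutation test, the smallest it can give without them). Those 2 libraries held the 2 lowest KO ratios, so a larger difference without them followed from the choice.

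**Figure D4:**
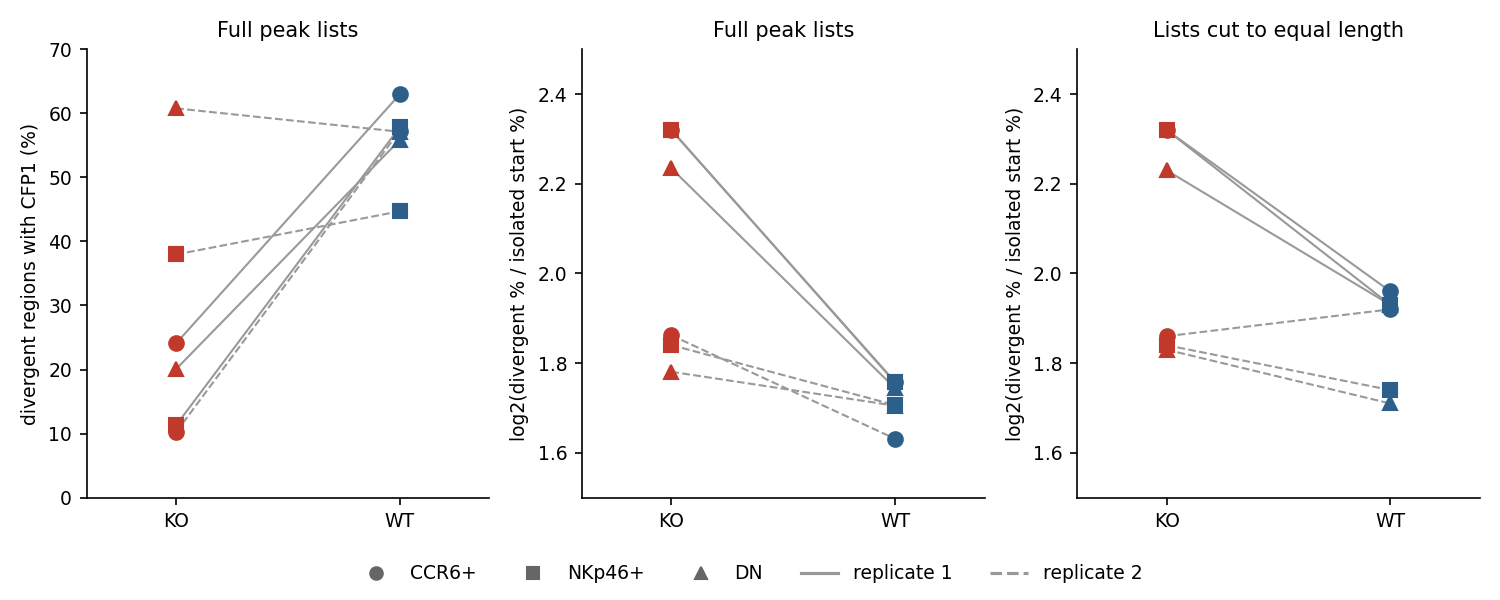
CFP1 at divergent regions in each KO and WT library, lines joining libraries of the same subset and replicate number. The left panel gives the percent of divergent regions with a peak, the middle panel the log2 ratio to the share at isolated starts, and the right panel the same ratio with lists cut to equal length. On full lists 5 of 6 KO shares are below their WT partner and all 6 ratios are above it.

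Region by region, no shared promoter passed the test between genotypes. Of 608 pairs with CFP1 in 2 to 10 libraries, 0 had an adjusted p under 0.05 (Fisher's exact test, 6 KO against 6 WT libraries, Benjamini-Hochberg adjustment over 4877 tested regions of the whole table, smallest adjusted p = 0.198), against 0.0% of all tested regions. At an unadjusted p under 0.05, 32 of 608 pairs had fewer KO libraries (5.26%), 22 of them divergent, and 0 had more, against 7.67% and 0.0% of all tested regions. More WT than KO libraries held CFP1 at 93.2% of the 339 tested divergent pairs, near the 91.4% of all tested regions, so the direction was not particular to them. Without KO NKp46+ and KO DN of replicate 2, a smaller share of KO than of WT libraries held CFP1 at 98.5% of 325 tested divergent pairs and 99.3% of all tested regions. The test has little reach here, since 212 regions at 0 KO and 6 WT libraries would be needed for a call at this number of tests, and 49 were found. Without the library labelled KO DN replicate 2, 22 of 575 pairs were called (3.83%), against 4.97% of all tested regions. Without it and KO NKp46+ replicate 2, 80 of 572 were called (14%), against 13.6% of all tested regions. The called pairs all had a lower share of KO than of WT libraries with CFP1, and their shares were near the background in both settings. Both settings left out long KO lists, so a rise in calls followed from the choice of libraries.

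CFP1 was in 0 KO and all 6 WT libraries at 2 of the 608 tested pairs (0.329%), against 1.0% of all tested regions. The divergent one was Fkbp3/Fancm (chromosome 12, gap of 171 b, facing ends at 65073938 and 65074110). Fkbp3 encodes a nuclear prolyl isomerase and Fancm a DNA translocase of the Fanconi anaemia repair pathway. Its CFP1 peaks had deposited fold enrichments of 7.47 and 10.1 in WT CCR6+, 7.51 and 8.13 in WT NKp46+ and 8.3 and 10.8 in WT DN libraries, and widths of 374 to 525 b. H3K4me3 reached over both facing gene ends in all 12 libraries, with fold enrichments of 9.34 to 13.1 in KO and 9.04 to 14.6 in WT. The CFP1 peaks covered the facing end of Fkbp3 and not that of Fancm. The RefSeq promoter of Fancm has its start 1493 b from the facing end used here, beyond the peaks of both antibodies described for this pair. The H3K4me3 ranges overlap almost wholly, while CFP1 is listed in one genotype only (unadjusted p = 0.00216, adjusted p = 0.198, Fisher's exact test). The tandem one was Mrps16/Cfap70, where the peaks lay at the start of Mrps16, a mitochondrial ribosomal protein, and H3K4me3 was in all 12 libraries.

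An excess of 5 WT over KO libraries in CFP1 was found at 21 divergent pairs, of which the 9 with the highest rank within the lists are described here. They also held H3K4me3 over both facing gene ends in all 12 libraries. CFP1 was in 0 KO and 5 WT libraries at Mettl25/Ccdc59 and Snx5/Mgme1, a sorting nexin beside a nuclease of the mitochondrial genome with a gap of 1 b. It was in 1 KO and 6 WT libraries at 16 of the 21 pairs, 7 of which are named. Among these, Ndufa4/Phf14 joins a respiratory chain subunit and a PHD-finger protein, and Npc2/Isca2 a lysosomal cholesterol carrier and a mitochondrial iron-sulfur assembly factor. Mmab/Mvk joins cobalamin metabolism and mevalonate kinase, Rad9b/Vps29 a checkpoint clamp subunit and a retromer subunit, and Zswim7/Ttc19 a recombination factor and a complex III assembly factor. Pdap1/Bud31 and Zdhhc3/Exosc7 pair a growth factor-associated and a splicing protein, and a palmitoyltransferase and an RNA exosome subunit. In 6 of the 7 named pairs the only KO library with CFP1 was the one labelled KO DN replicate 2, and at Zdhhc3/Exosc7 it was KO CCR6+ replicate 1. The excess of KO was small everywhere: CFP1 was in 1 KO and 0 WT libraries at Zfp672/Sh3bp5l, Tfpt/Prpf31 and Taf6/Cnpy4, and in 2 KO and 1 WT libraries at Nedd8/Gmpr2.

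Other divergent pairs held CFP1 in KO as well. CFP1 was in all 12 libraries at 34 pairs, 24 of them divergent, which is 5.57% of the 431 divergent pairs with CFP1 in any library, against 2.64% of all regions with CFP1 in any library. The strongest WT peaks, by median rank within the list, were at Larp7/Zgrf1, Dcaf6/Mpc2, Sugct/Mplkip, Mphosph10/Mcee and Exd1/Chp1. At Dcaf6/Mpc2, a ubiquitin ligase receptor and a mitochondrial pyruvate carrier subunit, fold enrichments were 5.93 and 9.66 in KO CCR6+, 6.25 and 12.2 in KO NKp46+ and 6.72 and 15.1 in KO DN libraries, against 10.8 and 14.1 in WT CCR6+, 11.5 and 14.2 in WT NKp46+ and 9.77 and 13.9 in WT DN. At Larp7/Zgrf1, a 7SK RNA-binding protein and a helicase of DNA repair, 5 KO libraries had fold enrichments of 5.22 to 13.4 and 6 WT libraries 9.04 to 15.2. The ranges of the genotypes overlap at both pairs, and each value is relative to its own library. Mphosph10/Mcee, a nucleolar protein and an enzyme of propionate metabolism, held CFP1 in 3 KO and 6 WT libraries.

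**Figure D5:**
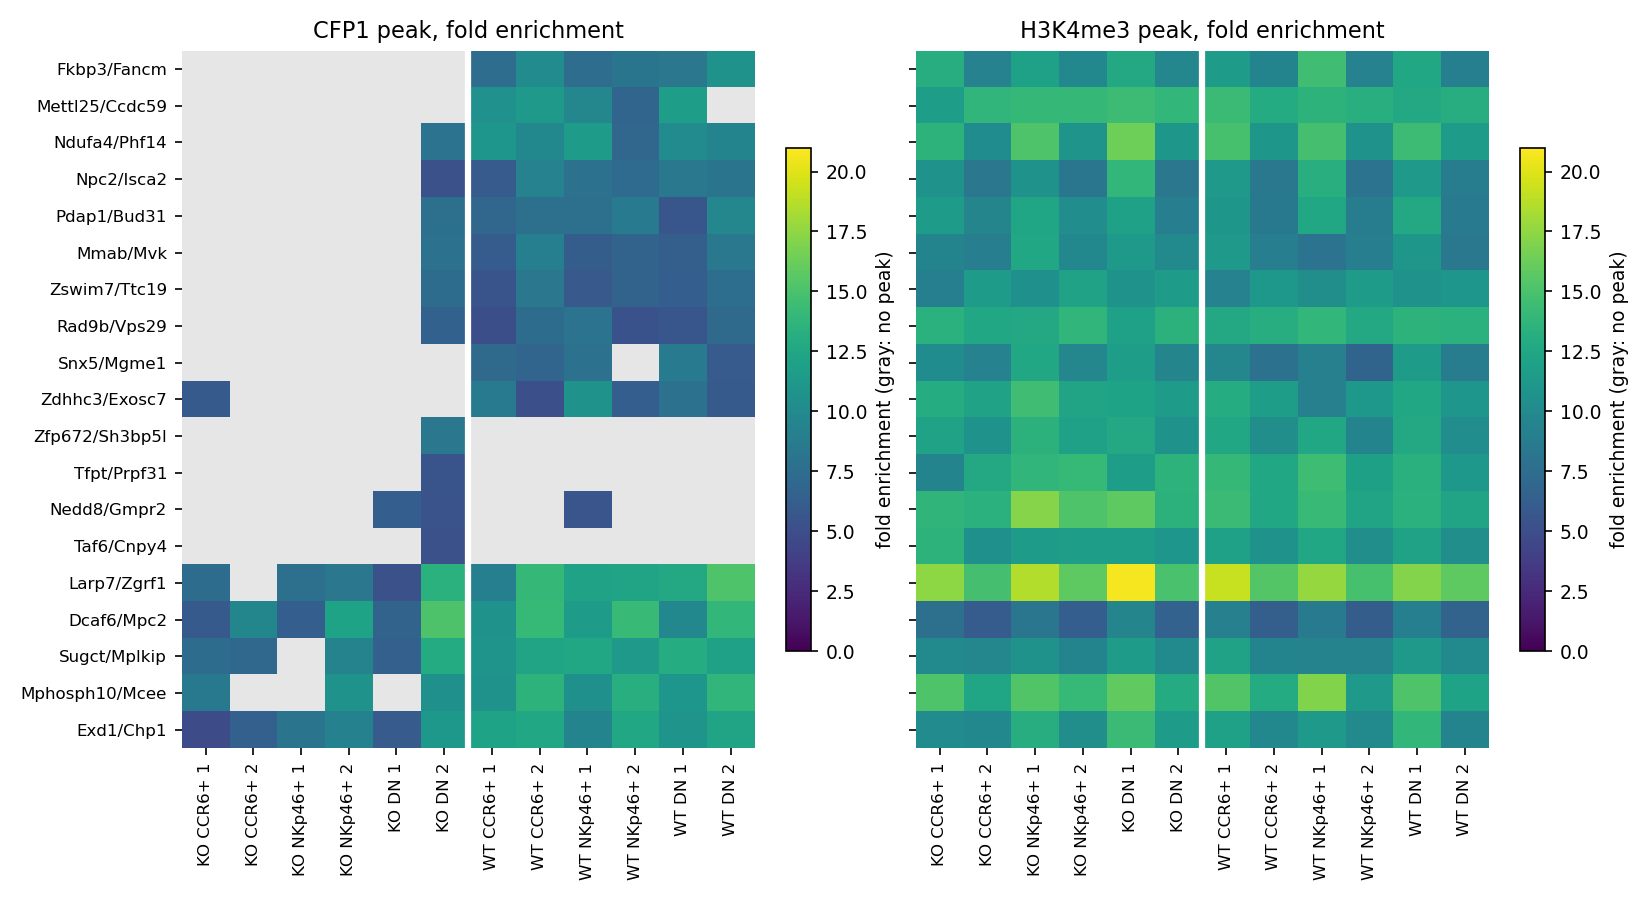
Deposited fold enrichment of the strongest CFP1 (left) and H3K4me3 (right) peak at 19 named divergent pairs, with 1 column per library, KO libraries left of WT, and gray where no peak is listed. The top 10 rows are gray for CFP1 in nearly all KO libraries, while every cell of the H3K4me3 panel is filled.

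H3K4me3 was also listed at the pairs where CFP1 was listed in all 6 WT but at most 2 KO libraries. All 63 such divergent pairs held H3K4me3 in all 12 libraries. So did all 184 divergent pairs with CFP1 in all 6 WT libraries, and 492 of all 548 divergent pairs (89.8%), so this was not particular to the 63. Their H3K4me3 peaks had a median width of 1347 ± 198 b in KO and 1422 ± 201 b in WT (SD over 6 libraries). The median rank within the list was at the 65.4 ± 5.82 percentile in KO and 62.7 ± 6.65 in WT. The 24 pairs with CFP1 in all 12 libraries had wider peaks, 1570 ± 227 b in KO and 1666 ± 234 b in WT. The 64 pairs with H3K4me3 in all 12 libraries and CFP1 in none had narrower ones, 988.3 ± 212 b in KO and 1048 ± 202 b in WT. These classes were made from CFP1 values and are a description.

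Between genotypes, the share of divergent regions with H3K4me3 differed by 0.365 ± 0.371 points (SE, KO minus WT, higher in KO in 4 of 6 pairs, exact permutation test, p = 0.463). Of 94 pairs with H3K4me3 in 2 to 10 libraries, 13 of them divergent, 0 passed the test (Fisher's exact test, adjusted over 1944 regions, smallest adjusted p = 0.755), against 0.0% of all tested regions. At an unadjusted p under 0.05, 2 had fewer KO libraries (2.13%) and 0 had more, against 0.823% and 1.18% of all tested regions. More KO libraries were marked at 48 of the 94 pairs and fewer at 25 (26.6%), against 51.0% and 28.4% of all tested regions. None was marked in 0 KO and 6 WT libraries or in 6 KO and 0 WT, against 0.206% and 0.0514%. The test has little reach here too, since 85 regions at 6 against 0 libraries would be needed for a call. Over all tested regions, 4 were found in 6 WT and 0 KO libraries and 1 in 6 KO and 0 WT. The absence of calls therefore does not show that H3K4me3 was unchanged. KO cells also carry the Cre, so effects of the Cre and of the loss of Cxxc1 cannot be told apart.

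Among the pairs with large differences in H3K4me3, WT libraries exceeded KO at Ccdc188/Zdhhc8, in 0 KO and 4 WT libraries, Ecm1/Tars2, in 2 KO and 5 WT, and Gpsm3/Pbx2, in 3 KO and 6 WT. Stat5b/Stat5a, which encode the transcription factors downstream of the receptors for IL-7 and IL-2, held H3K4me3 in 4 KO and 6 WT libraries (adjusted p = 1.0, Fisher's exact test), and no peak covered either of the facing ends there. Rps21/Cables2 held it in 1 KO and 3 WT libraries. KO exceeded WT at Rgl3/Ccdc151 and Selenom/Smtn, in 4 KO and 0 WT libraries each, at Tpm3/Nup210l, in 3 KO and 0 WT, at Arhgef25/Dtx3 and Nckap1l/Pde1b, in 4 KO and 1 WT each, and at Lrrc75b/Ggt1, in 5 KO and 2 WT. Of these pairs only Stat5b/Stat5a is classed as divergent.

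Between subsets, 0 pairs passed the test for either antibody (4 libraries of a subset against the 8 others, Fisher's exact test with adjustment, smallest adjusted p = 1.0), against 0.0% of all tested regions. The smallest unadjusted p that this Fisher's exact test can give is 0.00202. Over 4877 tested regions for CFP1 and 1944 for H3K4me3 it too has little reach. At an unadjusted p under 0.05, 1 pair differed in H3K4me3 between CCR6+ and the others and 0 for NKp46+ and DN, against 0.874%, 0.617% and 0.514% of all tested regions. In CFP1, 2 tandem pairs differed for DN, against 0.246%, and 0 for CCR6+ and NKp46+, against 0.0205% and 0.0%. Sgce/Peg10, a pair that is imprinted in the mouse, held H3K4me3 in 1 KO and 2 WT CCR6+ libraries, in 1 KO NKp46+ library and in no DN library. Apoe/Tomm40 and Vsig2/Nrgn held it only in both KO NKp46+ libraries. Ccna2/Bbs7, with the gene of cyclin A2, held it in 2 KO and 1 WT NKp46+ libraries, in 1 KO and 2 WT CCR6+ libraries and in no DN library. Lrrc75b/Ggt1 held it in 1 KO and 0 WT CCR6+, 2 KO and 0 WT NKp46+ and 2 KO and 2 WT DN libraries. Creld1/Prrt3 held it in 1 KO and 2 WT CCR6+ libraries and in 1 KO library of each other subset, and Dtx3/Pip4k2c in every CCR6+ and NKp46+ library and in 1 KO and 1 WT DN library.

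By function, the divergent pairs of 4 gene lists all carried H3K4me3 and carried CFP1 in part. Of all 548 divergent pairs, 492 (89.8%) held H3K4me3 in all 12 libraries. CFP1 was at 150.2 ± 105 of the 548 in KO (27.4%) and 306.7 ± 33.1 in WT libraries (55.96%). Fewer KO than WT libraries held it at 316 of the 339 tested divergent pairs. Lower counts in KO were thus not particular to these lists, which were not tested against the rest. Of the 28 divergent pairs with a gene of DNA replication or repair, all held H3K4me3 in all 12 libraries, and CFP1 was at 7.33 ± 5.39 pairs in KO and 16.7 ± 3.39 in WT libraries (SD, n = 6), with 21 pairs in fewer and 2 in more KO libraries. Polk/Cert1, a translesion polymerase and a ceramide carrier, held CFP1 in 1 KO and 6 WT libraries, and Ankrd49/Mre11a, with a nuclease of double-strand break repair, in 1 KO and 5 WT. Of the 44 pairs with a gene for a mitochondrial protein, all held H3K4me3 in all 12 libraries, and CFP1 was at 10.8 ± 8.33 in KO and 22.2 ± 3.87 in WT, with 28 pairs in fewer and 1 in more KO libraries. The 5 divergent pairs with an aminoacyl-tRNA synthetase, all marked, held CFP1 at 1.17 ± 1.6 in KO and 3.5 ± 1.05 in WT, with Lyrm4/Fars2 in 3 KO and 6 WT libraries. The 12 divergent pairs with a zinc finger gene, all marked, held CFP1 at 1.83 ± 1.83 in KO and 4.33 ± 1.51 in WT. In the 4 KO libraries with short lists, the counts of divergent pairs with CFP1 were 4.5 ± 2.38 for repair, 6.0 ± 1.41 for mitochondrial proteins, 0.25 ± 0.5 for synthetases and 0.75 ± 0.5 for zinc finger genes (SD). The median difference over the repair and mitochondrial lists was -2.0 libraries, against -3.0 over all tested regions, but the lists also count pairs that were not tested.

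In the other lists, which hold few divergent pairs and were not tested against the rest, some divergent pairs lacked H3K4me3. Of 10 divergent pairs of clustered histone genes, 5 held H3K4me3 in all libraries, and CFP1 was at 0.5 ± 1.22 in KO and 1.5 ± 0.548 in WT libraries, with H2ac11/H2bc11 in 1 KO and 5 WT. Of 7 divergent pairs with an immune gene, 6 held H3K4me3 in every library and CFP1 was at 1.0 ± 1.26 in KO and 2.33 ± 0.816 in WT. In the 4 KO libraries with short lists, CFP1 was at 0 of the histone pairs and at 0.25 ± 0.5 of the immune pairs. Among them Elavl1/Ccl25, the gene of an RNA-binding protein beside that of a chemokine of the small intestine, with a gap of 64 b, held H3K4me3 over both starts in all 12 libraries and CFP1 in 2 KO and 6 WT libraries. The 3 divergent pairs with a tissue-restricted gene held neither. Of 11 pairs with a gene of the H3K4 methylation machinery none was classed as divergent by the known strands. Kmt2b/Zbtb32 held CFP1 in 2 KO and 5 WT libraries, Men1/Map4k2 in 1 KO and 3 WT and Rhof/Setd1b in 0 KO and 2 WT, and all 3 held H3K4me3 in all 12 libraries.

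The following pairs of the function lists, tandem or of unknown strand, had large differences in CFP1 within their lists and held H3K4me3 in all 12 libraries. Ptgr2/Zfp410, a prostaglandin reductase beside a zinc finger factor, held CFP1 in 0 KO and 5 WT libraries, and Senp3/Tnfsf13, a SUMO protease beside the cytokine APRIL, in 1 KO and 5 WT. Aars/Exosc6, Ndufs1/Eef1b2, Zfp668/Zfp646 and Zfp513/Ppm1g held it in 2 KO and 6 WT libraries each. The histone pairs H4c1/H3c1 and H2ac6/H2bc4 held it in 3 KO and 6 WT each. Col23a1/Phykpl, the one tissue-restricted pair with CFP1, held it in 2 KO and 4 WT libraries.

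The 41 divergent pairs without H3K4me3 in any library had CFP1 in none either. They include Bhmt2/Dmgdh, enzymes of choline and betaine breakdown, where the nearest listed H3K4me3 peak was 80183 to 96481 b away. At Cd160/Pdzk1, a receptor of cytotoxic lymphocytes and a scaffold protein of epithelial membranes, it was 14252 to 15148 b away. At Best1/Rab3il1, an anion channel gene beside a Rab exchange factor gene, the distance was 7643 to 17760 b with 1 CpG in each promoter, and at Alyref/Anapc11, an mRNA export factor beside a subunit of the anaphase-promoting complex, it was 48746 to 74012 b with 54 and 50 CpG. Pairs with no listed peak thus included CpG-poor and CpG-dense promoters. The lists may not hold every peak, so these values do not show that the promoters lacked H3K4me3.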

How the data were processed

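Genotype, subset, antibody and replicate number came from the sample titles. Whether replicates came from separate animals is not stated, so the p-values cover only a spread between samples that may be technical. The submitters' processing notes name MACS2 2.2.7.1, Bowtie2 2.3.5.1, fastp 0.19.7, ChIPseeker 1.28.3 and Picard, and the build mm10. Roles, settings and any control library are not given in the sources used. For each library the authors deposited a narrowPeak list, in which a peak has a fold enrichment, which is a ratio, and a −log10 p-value and q-value. The smallest deposited −log10 q per list was 1.3 to 1.42. Fold enrichments are the authors' own and served only to filter, rank or describe peaks within a list. The lists may not hold every peak, so an absent peak means only that none is listed.

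Genes came from the RefSeq table of GRCm38.p6, which shares coordinates with mm10. That table holds no strand, which was taken from the RefSeq promoter table for 16457 of 20665 autosomal coding genes. A start in a divergent pair was the facing gene end of the gene table, and the promoter table puts some starts elsewhere. A region held a peak when they overlapped by 1 b or more. Library shares were compared between genotypes by exact permutation within subset, which cannot give a p under 0.00926, and within WT by an exact sign-flip over 6 libraries. The SE of a KO minus WT difference is over differences of libraries with the same subset and number, which the permutation does not pair. Presence per region was compared by Fisher's exact test over regions with a peak in 2 to 10 of 12 libraries. Of 39372 regions, 4877 met this for CFP1 and 1944 for H3K4me3, and the adjustment was over these. Alternatives covered fold enrichment, q-value, overlap, gap, flank and window, and leaving out each library. Named pairs were chosen by the size of the difference between genotypes or subsets in libraries with a peak, by rank in WT CFP1, by function list, or for lacking H3K4me3. Some pairs and genes that this rule or the marker lists name are not reported here. Ties went to the higher rank, and predicted genes (121 pairs) and chromosome 18 (22 pairs) were passed over for naming only. Some alternatives were chosen after seeing the data: H3K4me3 regions only, 20 to under 30 CpG only and a window at the right-hand start only. Lists of equal length and leaving out 2 KO libraries together were also chosen then. The members and the lists were chosen with earlier results of these data known. Scripts were tested on simulated data. The tools were SciPy 1.17.1, NumPy 2.4.6, matplotlib 3.10.9, pandas 2.3.3 and Python 3.11.15.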

Additional observations from a re-analysis of the deposited data

Results flagged for a closer look

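In WT NKp46+ replicate 1, H3K4me3 lay at 51.49% of tandem regions, below the 53.79 to 54.94% of the other 5 WT libraries, a gap to the nearest large for the range of 6 libraries. It was the only library that stood apart in this way among 24 groups of 6 examined, and chance sets apart about 1 group in 20.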

How the results depend on the processing

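Most results kept their direction and their side of the threshold under the other peak filters, overlaps, windows and flanks. The KO minus WT difference in the CFP1 share of divergent regions was -28.6 points with the replicate block (exact sign-flip over 6 pairs of subset and replicate number, p = 0.0625) and -0.25 points with lists of equal length (p = 0.963). The log2 ratio of divergent to isolated shares differed by 0.278 with gaps of at most 500 b (exact permutation test, p = 0.0556) and by 0.203 with lists of equal length (p = 0.157), and the cause was not tested for the gap. The pairing check, on peak presence by region, gave correlations of same-numbered libraries of 0.052 to 0.23 for CFP1 and -0.0016 to 0.14 for H3K4me3. On these values the numbers were not taken to pair samples. H3K4me3 peak width and the place of its strongest point nevertheless differed between replicate numbers in both genotypes. The block moved no other call. CFP1 pairs called were 22 (3.83%) without the library labelled KO DN replicate 2, against 4.97% of all tested regions, and 80 (14%) without it and KO NKp46+ replicate 2, against 13.6%. Without both, which were left out for their long lists, the share differed by -39.8 points and the log2 ratio by 0.498.

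Leaving out 1 library at a time gave -35.3 to -21.8 points for the CFP1 share (exact permutation tests, p = 0.00926 to 0.0741) and 0.262 to 0.422 for the log2 ratio (p = 0.00926 to 0.0833). The CFP1 share missed the threshold without KO NKp46+ replicate 1 (-24.1), KO DN replicate 1 (-21.8), WT NKp46+ replicate 1 (-26.4), WT NKp46+ replicate 2 (-30.7) or WT DN replicate 2 (-28.3). The log2 ratio missed it without WT CCR6+ replicate 2 (0.321), either WT NKp46+ library (0.351 and 0.334) or either WT DN library (0.349 and 0.336). The H3K4me3 share differed by 0.0 to 0.73 points. Its bridging share differed by -0.223 to 0.739 points, and was -0.209 without KO CCR6+ replicate 2, -0.159 without KO DN replicate 2 and -0.223 without WT NKp46+ replicate 1. Its log2 width differed by -0.183 to 0.0169, and was 0.00253 without KO CCR6+ replicate 1, 0.006 without KO DN replicate 1 and 0.0169 without WT NKp46+ replicate 2. With 5 WT libraries the sign-flip test cannot give a p under 0.0625, so all its comparisons miss the threshold by construction. The excess over isolated starts was then 37.9 to 40.5 points for CFP1 and 49.1 to 49.7 for H3K4me3, that over tandem regions 36.5 to 39.1 for CFP1 and 36.9 to 37.4 for H3K4me3, and the width difference 0.227 to 0.236. Pairs called ranged between 0 and 22 for CFP1 and were 0 for H3K4me3 in every such setting.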

Other observations

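Of the 41 divergent pairs with no listed H3K4me3 peak, 29 had the nearest one over 10000 b away in every library. Among them are pairs of widely used genes, such as Ftsj3/Psmc5, with a proteasome ATPase, at 37752 to 38068 b, Psma7/Ss18l1, with a proteasome core subunit, at 16237 to 16484 b, and Sirt6/Ankrd24, with a nuclear deacylase, at 46237 to 55488 b. These pairs were picked out after their values were seen, and the cause was not tested. The list of these 41 also holds pairs of clustered histone genes, among them H2ac15/H2bc15, whose nearest listed peak was 2515 to 2788 b away.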
